A study of Mus musculus with 30 samples.

Results

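Expression of the proteasome subunits, of the major histocompatibility complex (MHC, called H2 in the mouse) and of the antigen processing genes was followed in mouse colon epithelium and in 2 kinds of cultured colon cells. The members were taken by symbol. They are the genes whose symbols begin with Psm, a letter from a to g and a digit, those that begin with H2-, and 9 genes named singly (B2m, Tap1, Tap2, Tapbp, Tapbpl, Nlrc5, Ciita, Cd74 and Erap1). Of the 13456 genes listed in at least 1 of the 7 deposited tables, 79 are members, with 48 Psm symbols, 22 H2- symbols and all 9 of the genes named singly. All 7 tables list 67 of them. The mRNA sequencing covers 30 libraries in 10 groups of 3. Colon epithelium came from Smad4+ control mice and from mice labelled Smad4ΔLrig1, of the strain C57BL/6J, with no age given; Lrig1 marks stem and progenitor cells of the epithelium, and the Cre line itself is not described in the labels. Colonocytes in culture, all labelled IMCfl/fl Smad4+, were left untreated as controls, or received TNF alone, the pair TGFB1 and BMP2, or the 3 ligands together, and the labels state no dose. Colonoids, organoids of colon epithelium, were of the lines L42, L43 and L46, with 1 library per line and treatment. They received vehicle, TNF at 100 ng/mL, TGFB1 at 3 ng/mL with BMP2 at 10 ng/mL, or all 3 ligands at these doses. The labels give neither the length of any treatment nor what separates the replicates of the colonocytes, so p-values there measure only the spread between these libraries, which may be technical.

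The proteasome is the barrel-shaped protease that degrades ubiquitin-tagged proteins. Its 20S core is built of alpha and beta rings, of which Psmb5, Psmb6 and Psmb7 carry the catalytic sites, and its 19S cap of ATPases (Psmc) and other subunits (Psmd) recognises and unfolds substrates. Interferon and other inflammatory signals induce the immunoproteasome subunits Psmb8, Psmb9 and Psmb10, which replace Psmb5, Psmb6 and Psmb7 in newly built cores and shift the peptides that are cut. The PA28 cap (Psme1 with Psme2) opens the core. Tap1 and Tap2 carry the peptides into the endoplasmic reticulum, Erap1 trims them, and Tapbp (tapasin) and Tapbpl edit which peptide is loaded on a class I heavy chain paired with the light chain B2m. Class II molecules, with the invariant chain Cd74 and the exchange factor H2-DM, present peptides of endosomal origin and are made by antigen presenting cells and, when induced, by epithelium. Nlrc5 and Ciita are the transactivators of class I and class II genes.

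Levels are in CPM, which are read counts that the authors scaled to a common effective library size. Changes are differences of log2(CPM + 1) with their standard error (SE), tested with limma across all genes of a table with a mean CPM of at least 1. A gene is said to have risen or fallen where the adjusted p was under 0.05, and n is 3 libraries per group throughout. Because normalization was done table by table, the CPM of a shared library differ slightly between tables. All members listed in a table passed the filter on low values. Recovered reads ran from 21.6 to 61.7 M per library. Smad4, the targeted gene, stood between 132 and 152 CPM in the control colons and between 46.1 and 59.2 CPM in the knockout, which checks the labels. All 10 epithelial markers were listed in colon and colonoids. The colonocytes listed only 3 or 4 of them, depending on the table, with a summed level of 27.3 to 49.9 CPM and Epcam among the unlisted, against 8 of 10 stromal markers (Col1a1 and Vim among them) at 6770 to 7814 CPM. Leukocyte markers were 11 of 23 in colon, with summed levels of 73.3 to 105 CPM in controls and 89.9 to 104 CPM in the knockout, 2 of 23 in colonocytes and 2 or 3 of 23 in colonoids, where Ptprc, the pan-leukocyte marker, was not listed. Among the colonoids, the L46 libraries given TGFB1 with BMP2, without and with TNF, differed most from the other 2 of their groups, with a median absolute difference over genes of 0.26 and 0.27 in log2, against 0.10 to 0.20 in the other 10 libraries. The labels also number the L46 libraries in another series (L48) than those of L42 and L43 (L45), so line and numbering cannot be told apart. GENCODE annotates H2-K2 as a transcribed pseudogene. It annotates H2-Q5 and H2-T10, which are counted here among the class I heavy chains, as polymorphic pseudogenes. Many H2-Q and H2-T genes are near-identical copies, and no source used here gives the strand setting of the counting. Reads of these genes, and of Psmb9 and Tap1, which overlap on opposite strands of chromosome 17 (Psmb9 at 34181987 to 34187764 and Tap1 at 34187553 to 34197225 in mm10), may be assigned to the wrong gene.

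Per kilobase of exon, B2m was the highest member in all 3 systems, at 1887 ± 237 (SD) CPM per kb in control colon, 4199 ± 140 in control colonocytes and 261 ± 27.5 in vehicle colonoids. The class Ia heavy chain H2-K1 ranked 3 in colon (494 ± 27.1 CPM per kb) and next to B2m in colonocytes (293 ± 1.45) and colonoids (176 ± 52.8). Cd74 ranked 2 in colon at 1130 ± 62.1 CPM per kb, and stood at 33.3 ± 11.0 in colonocytes and 2.103 ± 1.22 in colonoids. These levels use the summed exon length of each gene over all its annotated transcripts in GENCODE vM21. This length can exceed that of the mRNA counted, so the order of genes within a system depends on it. The systems were normalized apart. Each immunoproteasome subunit was set beside the constitutive subunit it replaces, also per kb. The summed exons are 3381 bases for Psmb8 and 899 for Psmb5. Without division by length, the log2 ratio of Psmb8 to Psmb5 (CPM + 1) was 1.56 in control colon and 0.88 in control colonocytes. Psmb8 thus lay above Psmb5 in both, the reverse of the order per kb. In vehicle colonoids the ratio was -3.75, the same order as per kb. That of Psmb9 to Psmb6 was 0.05 in control colon. In control colon, Psmb8 stood at 67.6 ± 3.04 CPM per kb beside 85.9 ± 7.38 for its counterpart Psmb5, Psmb9 at 36.3 ± 2.82 beside 68.4 ± 4.06 for Psmb6, and Psmb10 at 138 ± 15.1 beside 41.9 ± 1.18 for Psmb7. In vehicle colonoids, Psmb8 stood at 1.42 ± 0.506 CPM per kb beside 83.0 ± 2.04 for Psmb5, Psmb9 at 2.20 ± 0.185 beside 73.7 ± 3.85 for Psmb6, and Psmb10 at 26.5 ± 2.63 beside 45.6 ± 3.04 for Psmb7. In colonocytes, Psmb8 stood at 18.5 ± 0.523 CPM per kb beside 37.5 ± 3.20 for Psmb5, Psmb9 at 8.96 ± 0.913 beside 80.5 ± 4.94 for Psmb6, and Psmb10 at 13.0 ± 0.650 beside 39.5 ± 1.04 for Psmb7. The colon epithelium, but neither culture, listed the T cell markers Cd3d, Cd3e and Cd8a, and T cells express these subunits. Their part in these levels was not tested. Ciita, the class II chain H2-Eb1 and the class Ib genes H2-T3 and H2-T24 were listed only in colon, Nlrc5 in colon and colonocytes but in no colonoid table, and H2-M2 only in the 2 colonoid tables that include TNF alone. H2-Aa and H2-DMb1 were in no colonoid table, H2-DMb2 only in colonocytes, H2-Q1 and H2-Q2 in no colonocyte table and Psme2b not in colon.

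**Figure D1:**
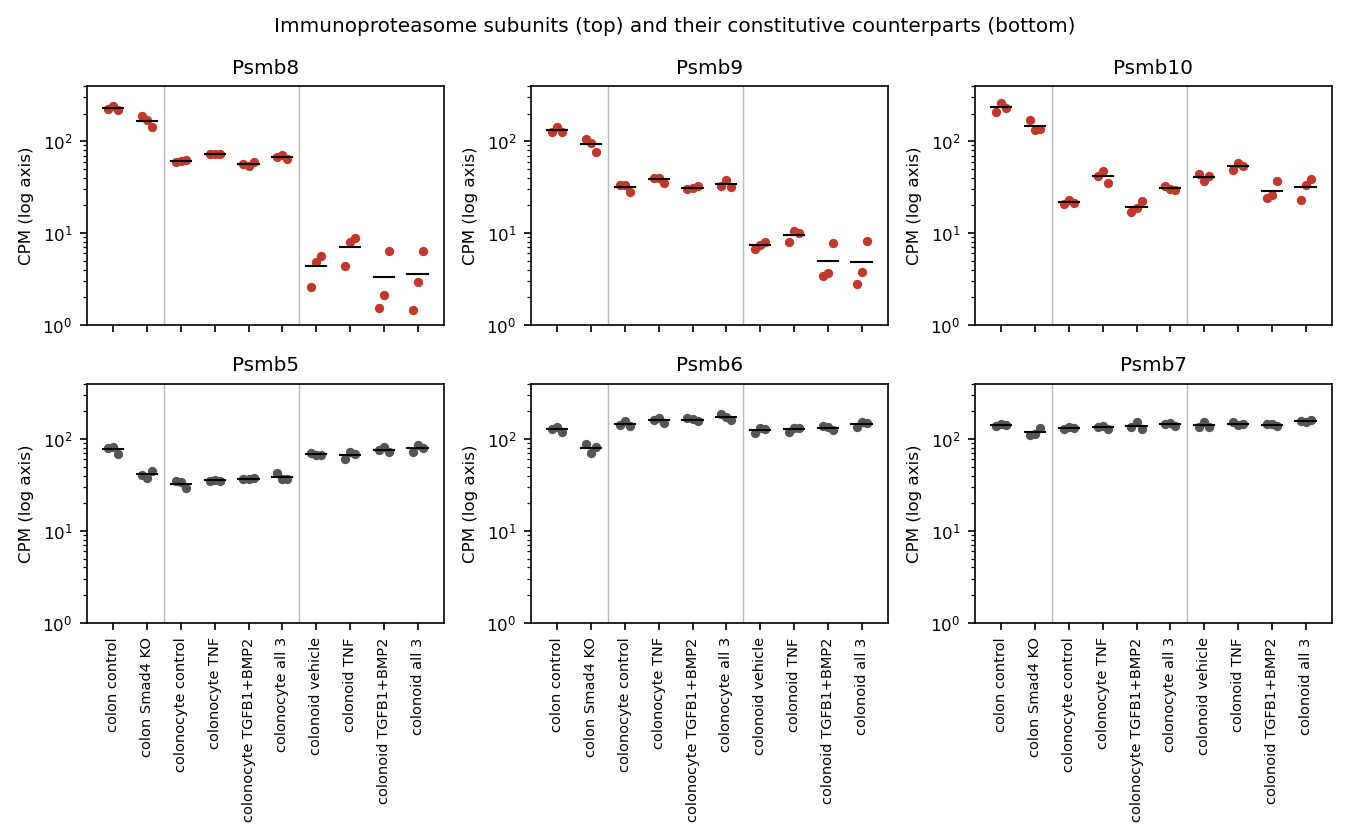
CPM on a log axis of the immunoproteasome subunits (top row) and the constitutive subunits they replace (bottom row) in each library of the 10 groups, with the group mean as a bar. Colon values are from their own table and each culture system was scaled jointly over its 12 libraries, so heights compare within the vertical lines. Psmb8 and Psmb9 lie at 1 to 11 CPM in colonoids, where Psmb5, Psmb6 and Psmb7 lie above 50 CPM.

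In the Smad4 knockout colon, the immunoproteasome and much of the 20S core fell while B2m rose. Markers of cell types moved beside these genes: the summed level of 10 epithelial markers went from a range of 30661 to 33453 CPM over the controls to one of 22020 to 26645 CPM over the knockout libraries, which do not overlap, with 1 marker higher and 2 lower, and that of the 3 stromal markers listed was 25.8 to 28.1 and 18.1 to 21.6 CPM. Of the 11 leukocyte markers listed, 1 rose and 2 fell (log2 changes of -0.88 to 1.25). Their part in the results was not tested. All 3 immunoproteasome subunits fell, as did 8 of 14 constitutive 20S subunits, and 0 of these 14 rose. Of the 17 subunits of the 19S cap, 3 were higher and 3 lower, shares near the 19.8% and 19.9% of all genes tested. Over all 76 members tested, 7 rose and 25 fell, which is 9.21% and 32.9% of them, against 19.8% higher and 19.9% lower among all genes tested. The median change was -0.18 over the members and 0.00 over all genes.

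Psmb8 went from 224, 240 and 221 CPM in the controls to 189, 171 and 142 CPM in the knockout libraries, a fall of 0.45 (SE 0.12, adjusted p = 0.012). Psmb9 stood at 127, 145 and 127 CPM in controls and at 106, 95.3 and 76.5 CPM in the knockout (log2 change -0.53, SE 0.13, adjusted p = 0.0092). Psmb10 stood at 211, 262 and 233 CPM in controls and at 171, 134 and 135 CPM in the knockout (log2 change -0.68, SE 0.12, adjusted p = 0.0025). For all 3 subunits every knockout library lay below every control. The call of Psmb8 was lost without control replicate 2. Of the constitutive catalytic subunits, Psmb5, which cuts after hydrophobic residues, went from 80.5, 81.5 and 69.6 CPM to 41.1, 38.0 and 44.5 CPM, a fall of 0.89 (SE 0.11, adjusted p = 0.00043), and its groups did not overlap either. Psmb6 fell by 0.67 and Psmb7 changed by -0.27 (adjusted p = 0.056). Among the assembly factors, Psmg3, a chaperone of the 20S alpha ring, had the largest fall of all members. It stood at 16.8, 13.7 and 12.8 CPM in controls and at 5.87, 5.41 and 8.24 CPM in the knockout (log2 change -1.05, SE 0.17, adjusted p = 0.0015). Its partner Psmg4 fell by 0.74, and the noncatalytic ring subunits Psmb4 and Psmb3 fell by 0.82 and 0.75. H2-Ke6, a dehydrogenase gene of the MHC region that encodes no MHC molecule, went from 28.5, 29.3 and 24.9 CPM to 17.3, 14.9 and 13.2 CPM (log2 change -0.83, SE 0.13, adjusted p = 0.0014).

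B2m had the largest rise, from 1411, 1641 and 1817 CPM in controls to 2931, 3451 and 2473 CPM in the knockout (log2 change 0.86, SE 0.15, adjusted p = 0.0021). Erap1 went from 139, 150 and 172 CPM to 212, 246 and 231 CPM (log2 change 0.58, SE 0.11, adjusted p = 0.0027). Psme3, the nuclear PA28 gamma activator, went from 159, 113 and 113 CPM to 198, 200 and 197 CPM (log2 change 0.64, SE 0.13, adjusted p = 0.0043). The knockout libraries lay above all controls for each of these 3 genes. The proteasome activator Psme4 rose by 0.39, and the 19S subunits Psmd1, Psmd11 and Psmc2 by 0.44, 0.37 and 0.30. The heavy chains did not rise with B2m. None of 12 passed the test upward and 3 fell, namely H2-Q2 (log2 change -0.69), H2-T23 (-0.64), which encodes the nonclassical molecule Qa-1, and H2-T3 (-0.56), the thymus leukaemia antigen of intestinal epithelium. Among all genes tested, 19.8% were higher and 19.9% lower, so the share of heavy chains that fell was near that of all genes. The classical chains H2-K1 and H2-D1 changed by -0.19 (adjusted p = 0.30) and -0.06 (adjusted p = 0.76). Tap1 stood at 152, 210 and 190 CPM in controls and at 255, 203 and 123 CPM in the knockout, so that its groups overlapped (log2 change 0.02, SE 0.23, adjusted p = 0.94). Nlrc5 had overlapping groups, with control colons at 29.0 ± 1.28 CPM and knockout colons at 45.9 ± 17.8 CPM (log2 change 0.56, adjusted p = 0.10); the authors' deposited table gives it a log2 fold change of 0.66 and a false discovery rate of 0.015. Of the class II set, H2-Ab1 fell by 0.41 (adjusted p = 0.043; adjusted p = 0.060 with total reads as the only scaling) and the other 6 genes did not pass the test, with Cd74 at 1897 ± 104 and 2054 ± 457 CPM. In bulk samples, fewer cells of a type and less RNA per cell cannot be told apart.

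Members with a short summed exon length tended to be lower in the knockout, as did genes in general. This length merges all annotated transcripts of a gene and need not be that of the mRNA present. Across the 75 members with an annotated exon length, length and log2 change had a Spearman correlation of 0.32. Across the 31 constitutive subunits it was 0.44, and across 11085 genes it was 0.41, a description over genes that share the same 6 libraries. In the other 6 comparisons the correlation over all genes lay between -0.098 and 0.20. B2m, with 860 bases of exon, rose although it is among the shortest members. The part of length in the falls of the core subunits was not tested.

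**Figure D2:**
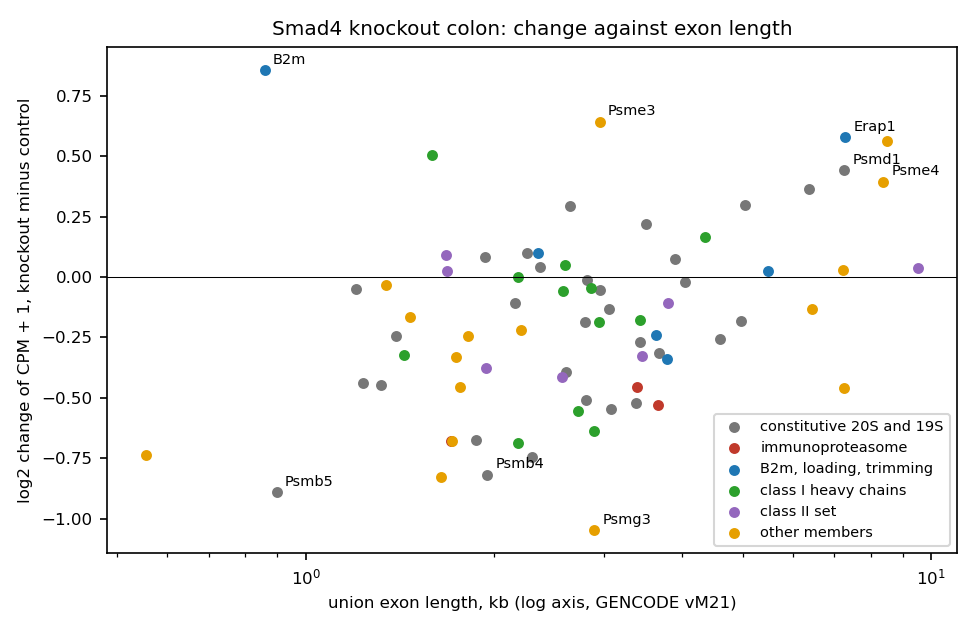
Log2 change of each of 75 members in the knockout (y axis) against the summed exon length of its gene in kb (log x axis), coloured by kind of gene. Short core subunits such as Psmb5 lie at the lower left and Erap1, Psmd1 and Psme4 at the upper right, while B2m is short and has the largest rise, 0.86.

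TNF raised the class I pathway in colonocytes and left the constitutive proteasome nearly in place. Of 72 members, 16 rose (22.2%) and 0 fell, against 4.61% higher and 1.67% lower among all genes tested. They comprise 6 of 8 class I heavy chains, 3 of the 4 loading genes, 2 of the 3 immunoproteasome subunits and 2 of the 3 PA28 genes, the assembly chaperone Psmd10 and H2-K2, but 1 of 31 constitutive subunits (Psmd8, log2 change 0.21, adjusted p = 0.035, and 0.075 with total reads as the only scaling). The Psmd8 call was lost without replicate 1 or 2 of either group. With the replicate number as a block, 28 members were called, all higher, of which 7 are constitutive subunits, against 11.5% of all genes higher and 8.8% lower under the same block. No class II gene passed the test, with log2 changes of 0.07 to 0.12 over 6 genes. Of the immunoproteasome subunits, Psmb10 had the largest rise, from 21.4, 23.5 and 21.8 CPM in controls to 43.3, 48.8 and 36.4 CPM under TNF (log2 change 0.91, SE 0.10, adjusted p = 0.00015). Psmb8 stood at 60.9, 62.6 and 64.4 CPM in controls and at 75.4, 74.8 and 74.4 CPM under TNF, a smaller rise (log2 change 0.25, SE 0.05, adjusted p = 0.0087). Psmb9 stood at 34.8, 34.6 and 29.0 CPM in controls and at 41.0, 41.4 and 36.4 CPM under TNF, and did not pass the test without the block (log2 change 0.27, SE 0.08, adjusted p = 0.097; adjusted p = 6.5e-05 with the block). For all 3 subunits the groups did not overlap. Leaving out control replicate 1 or TNF replicate 1 ended the call of Psmb8. Their counterparts Psmb5, Psmb6 and Psmb7 changed by 0.12, 0.13 and 0.03.

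Among the heavy chains the largest rise was that of a nonclassical gene. H2-Q10, a secreted class Ib molecule, went from 7.52, 5.71 and 5.53 CPM to 14.1, 11.96 and 11.3 CPM (log2 change 0.90, SE 0.12, adjusted p = 0.0010). H2-K2, a class I-like sequence beside H2-K1 that is annotated as a transcribed pseudogene, went from 6.61, 7.47 and 5.85 CPM to 13.1, 14.8 and 11.3 CPM (log2 change 0.88, SE 0.12, adjusted p = 0.00081). In both, every TNF library lay above every control. H2-T23 rose by 0.65, H2-T10 by 0.52 and H2-Q4 by 0.43, whereas the far more abundant H2-K1 rose by 0.25 (860 ± 4.26 to 1023 ± 21.9 CPM) and H2-D1 by 0.21 (699 ± 15.1 to 807 ± 28.2 CPM). Of the loading genes, Tapbpl rose by 0.78 (13.4 ± 1.58 to 23.6 ± 2.57 CPM), Tapbp by 0.50 (137 ± 4.15 to 194 ± 8.64 CPM) and Tap2 by 0.49 (52.0 ± 2.17 to 73.4 ± 0.445 CPM). Tap1, the partner of Tap2 in the transporter, stood at 165, 163 and 160 CPM in controls and at 166, 177 and 184 CPM under TNF (log2 change 0.11, SE 0.05, adjusted p = 0.25; adjusted p = 0.020 with the block). B2m stood at 3479, 3640 and 3714 CPM in controls and at 3608, 3890 and 3707 CPM under TNF, with overlapping groups (log2 change 0.05, SE 0.05, adjusted p = 0.65). The transactivator Nlrc5 stood at 154 ± 17.8 and 160 ± 28.4 CPM (adjusted p = 0.85).

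Under TNF in colonoids, 2 members passed the test, H2-M2 and Tapbp. Of 71 members, 2 rose (2.82%) and 0 fell, against 0.12% higher and 0.0171% lower among all genes. The share of members counts H2-M2, which passed the filter on low values only through the TNF libraries. Without H2-M2, Tapbp alone is left. The lines pair the libraries, and with the line as a block 12 members were called, 11 of them higher and 1 lower, against 3.76% and 2.39% of all genes under the same block. Without the block, leaving out any vehicle library or the L42 TNF library left 0 members called by limma, and leaving out the L43 or L46 TNF library left 1. H2-M2, a nonclassical class Ib gene, stood at 0.540, 0.764 and 0.433 CPM in the vehicle libraries of L42, L43 and L46 and at 7.59, 12.8 and 5.63 CPM under TNF. All 3 TNF libraries lay above all vehicle libraries (log2 change 2.55, SE 0.27), with 23 to 39 reads in the vehicle libraries and 323 to 600 under TNF. With its vehicle level under 1 CPM, H2-M2 passed the filter on low values only through the TNF libraries, so its call is a description. Tapbp went from 99.8, 93.6 and 95.9 CPM to 143, 157 and 139 CPM (log2 change 0.59, SE 0.07, adjusted p = 0.042), also without overlap. Its adjusted p was 0.070 with total reads as the only scaling. Cd74 had a log2 change of 2.20 (SE 0.40) from 2.66, 5.88 and 2.05 CPM to 15.6, 31.6 and 12.8 CPM, with adjusted p = 0.22 without the block and 2.3e-06 with it.

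B2m stood at 240, 237 and 197 CPM with vehicle and at 325, 316 and 259 CPM with TNF (log2 change 0.41, SE 0.12, adjusted p = 0.64; adjusted p = 0.00089 with the block). Psmb10 stood at 48.9, 40.2 and 46.4 CPM with vehicle and at 53.7, 64.4 and 59.4 CPM with TNF (log2 change 0.38, adjusted p = 0.59; adjusted p = 0.040 with the block). Psmb8 stood at 2.88, 5.35 and 6.16 CPM with vehicle and at 4.86, 8.90 and 9.74 CPM with TNF, higher in each line although the groups overlap (log2 change 0.61, adjusted p = 1.0; adjusted p = 0.0029 with the block). For Psmb9 the levels were 7.37, 8.09 and 8.73 CPM with vehicle and 8.90, 11.7 and 10.9 CPM with TNF (log2 change 0.34, adjusted p = 1.0; adjusted p = 0.047 with the block). Tap1 overlapped between groups, at 16.8, 12.7 and 22.7 CPM with vehicle and 17.9, 14.97 and 23.6 CPM with TNF (log2 change 0.12, adjusted p = 1.0). None of the 31 constitutive subunits was called, with or without the block, and their log2 changes ran from -0.04 to 0.13. The difference in TNF response between colonocytes and colonoids was not tested.

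Promoter sequences are shown for 4 class I genes with different TNF responses, for Psmb10, the immunoproteasome subunit that rose most with TNF in colonocytes, and for the constitutive subunit Psmb5. They are the bases before the RefSeq start in GRCm38.p6, without those inside the GENCODE gene, written 5′ to 3′ on the strand of the gene. Capitals mark the letters of 5 motifs found on either strand: kB-like GGNNNTTCC, ISRE-like GAAANNGAA, GAS TTCNNNGAA, the Y box CCAAT and the antioxidant-response-like TGACNNNGC. kB-like letters are those that NF-kB, the factor downstream of TNF, is known to bind, and the Y box is part of the promoter module of MHC genes.
H2-M2 (chr17:37483555-37483804, minus strand): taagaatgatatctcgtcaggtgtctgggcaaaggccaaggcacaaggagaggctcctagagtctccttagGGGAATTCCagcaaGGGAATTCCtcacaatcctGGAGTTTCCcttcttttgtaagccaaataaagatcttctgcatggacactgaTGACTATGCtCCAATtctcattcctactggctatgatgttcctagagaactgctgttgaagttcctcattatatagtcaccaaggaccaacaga
B2m (chr2:122147437-122147685, plus strand): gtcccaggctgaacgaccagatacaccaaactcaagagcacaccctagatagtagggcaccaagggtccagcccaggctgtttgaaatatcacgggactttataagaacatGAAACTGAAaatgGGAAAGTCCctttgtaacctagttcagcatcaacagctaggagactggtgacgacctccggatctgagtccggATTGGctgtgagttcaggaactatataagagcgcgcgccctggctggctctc
H2-K1 (chr17:34000348-34000583, minus strand): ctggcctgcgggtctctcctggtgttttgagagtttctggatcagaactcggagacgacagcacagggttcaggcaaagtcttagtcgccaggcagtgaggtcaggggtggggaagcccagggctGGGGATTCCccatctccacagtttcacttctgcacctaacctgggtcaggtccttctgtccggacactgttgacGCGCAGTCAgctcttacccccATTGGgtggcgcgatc
H2-Q4 (chr17:35379367-35379616, plus strand): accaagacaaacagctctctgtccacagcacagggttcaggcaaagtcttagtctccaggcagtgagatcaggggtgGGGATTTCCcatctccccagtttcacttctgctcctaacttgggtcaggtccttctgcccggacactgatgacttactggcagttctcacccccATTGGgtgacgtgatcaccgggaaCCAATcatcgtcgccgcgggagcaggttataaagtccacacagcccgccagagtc
Psmb10 (chr8:105938445-105938642, minus strand): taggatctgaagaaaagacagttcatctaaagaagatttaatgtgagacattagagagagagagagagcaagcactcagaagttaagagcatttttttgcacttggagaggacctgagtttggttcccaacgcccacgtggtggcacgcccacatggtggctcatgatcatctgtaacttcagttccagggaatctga
Psmb5 (chr14:54618023-54618245, minus strand): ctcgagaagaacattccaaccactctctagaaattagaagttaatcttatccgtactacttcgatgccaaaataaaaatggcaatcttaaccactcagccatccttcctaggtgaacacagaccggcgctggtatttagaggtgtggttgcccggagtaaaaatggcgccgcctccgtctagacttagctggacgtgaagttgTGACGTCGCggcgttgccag

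The H2-M2 window holds 3 kB-like matches, beginning 179, 165 and 146 bases before the start. Of all 32851 windows of 300 bases in the RefSeq table, 0.180% hold 3 or more, and H2-M2 is the only member among them. The cutoff of 3 equals the number in H2-M2, a gene chosen after its values were seen, so this share is a description. The part of these matches in its TNF response was not tested. B2m holds 1 kB-like match at 126 bases, 1 ISRE-like match at 139 bases and a Y box at 53 bases before the start. H2-K1 and H2-Q4 each hold 1 kB-like match, at 125 and 173 bases. The stretch shown for Psmb10 holds none of the 5 motifs, and that for Psmb5 holds 1 antioxidant-response-like match at 47 bases. The full 300-base window of Psmb5 also holds kB-like letters, in the bases left out of the stretch shown. Windows were found for 60 of the 79 members (65 windows). kB-like letters stood in 40.0% of the 65 windows of members and in 18.5% of all windows, and in 12 of 25 constitutive subunits, most of which did not pass the test under TNF. The Y box stood in 47.7% of members' windows against 37.4% of all, in 7 of 9 class I heavy chains and 5 of 5 class II genes. ISRE-like letters stood in 15.4% against 8.56%, GAS in 7.69% against 8.30% and antioxidant-response-like letters in 18.5% against 12.4%. Windows of H2 genes share sequence by descent, and a match is a description of letters, not a binding site.

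**Figure D3:**
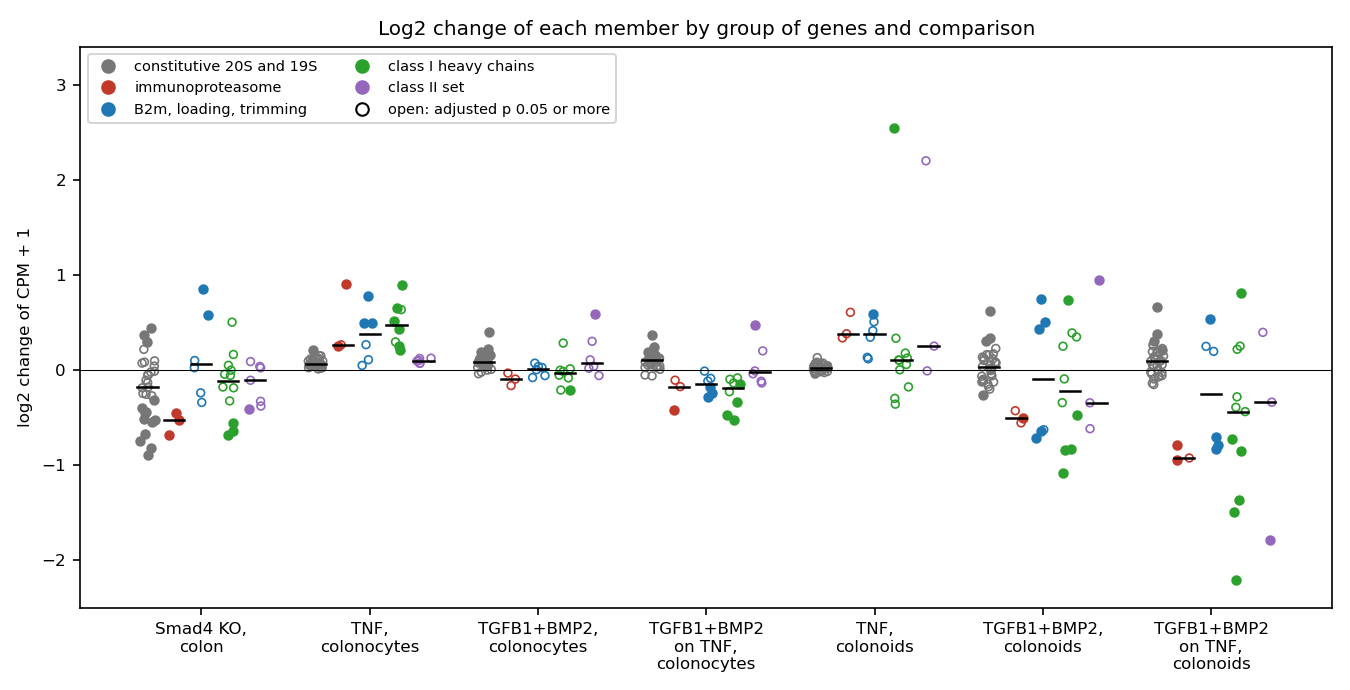
Log2 change of CPM + 1 (y axis) of single members in the 7 comparisons (x axis), by kind of gene; filled points passed the test at adjusted p under 0.05, open points did not, and bars are medians. The medians of the constitutive subunits lie between 0.03 and 0.11 in the culture comparisons, with single subunits such as Psmd8 at up to 0.67, and the class I genes reach 2.55 and -2.21 in colonoids with H2-M2.

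TGFB1 with BMP2 changed few members in colonocytes. Against controls, 7 of 72 members rose (9.72%) and 1 fell (1.39%), against 15.9% and 14.3% of all genes. With total reads as the only scaling the split was 2 higher and 6 lower, against 10.6% and 24.9% of all genes, and the shift of all genes by that scaling was -0.08. The risers were 5 of 31 constitutive subunits, the class II chain H2-Ab1 and the PA28 gene copy Psme2b. Leaving out control replicate 1 or 2, or treated replicate 1 or 2, left 4 members called. H2-Ab1 stood at 11.2, 11.7 and 14.97 CPM in controls and at 17.1, 18.1 and 23.3 CPM after TGFB1 with BMP2 (log2 change 0.59, SE 0.12, adjusted p = 0.0026). Psmb2, a noncatalytic subunit of the beta ring, went from 180, 176 and 175 CPM to 242, 247 and 215 CPM (log2 change 0.40, SE 0.06, adjusted p = 9.3e-05). Neither gene's groups overlapped, and both rose under the other scaling as well. Psme2b went from 5.52, 5.11 and 5.20 CPM to 6.92, 6.67 and 6.65 CPM (log2 change 0.30, SE 0.10, adjusted p = 0.034), a call lost without any 1 library, and H2-T10 from 30.5, 34.5 and 31.7 CPM to 27.2, 26.6 and 29.4 CPM (log2 change -0.21, SE 0.07, adjusted p = 0.046), lost without control or treated replicate 1 or 2.

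None of the immunoproteasome subunits was called, with overlapping groups for each. Psmb8 stood at 59.9, 61.5 and 63.1 CPM in controls and 57.4, 54.7 and 60.7 CPM treated (log2 change -0.09, adjusted p = 0.25), and Psmb9 at 34.3, 34.1 and 28.4 CPM and 30.6, 31.1 and 32.6 CPM (-0.03, adjusted p = 0.80). Psmb10 stood at 21.1, 23.1 and 21.4 CPM in controls and 17.0, 18.7 and 22.8 CPM treated (log2 change -0.16, adjusted p = 0.24). Tap1 went from 163, 160 and 157 CPM to 152, 144 and 158 CPM (log2 change -0.08, adjusted p = 0.26) and B2m from 3423, 3578 and 3640 CPM to 3546, 3633 and 3659 CPM (log2 change 0.03, adjusted p = 0.71, and -0.06 with total reads as the only scaling).

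Added to TNF, TGFB1 with BMP2 lowered 4 of 8 class I heavy chains and 3 of 4 loading genes of the colonocytes. Of 72 members, 6 rose (8.33%) and 9 fell (12.5%), against 16.4% and 15.6% of all genes, and with total reads as the only scaling 3 rose and 16 fell, against 11% and 26.5%. With the replicate number as a block, 34 of the 72 members were called, 18 higher and 16 lower, shares near the 21.9% and 21.4% of all genes under the same block. The pairing by number is uncertain in this comparison, as replicate 2 was not closest to its own number. The 9 that fell are 4 class Ib chains (0 of 8 heavy chains rose), Tap2, Tapbp, Tapbpl, Psmb10 and the PA28 subunit Psme1. The TNF libraries serve both this comparison and that of TNF with controls, where Psmb10 changed by 0.91 and H2-Q10 by 0.90, so the changes are not independent. The risers are 5 of 31 constitutive subunits, a share near that of all genes, and H2-Ab1. Psmb10 went from 41.6, 46.8 and 35.0 CPM with TNF to 32.0, 30.02 and 29.1 CPM with all 3 ligands (log2 change -0.42, SE 0.09, adjusted p = 0.0040), without overlap. Psmb8 stood at 72.5, 71.8 and 71.5 CPM with TNF and at 67.1, 69.7 and 63.5 CPM with all 3 (log2 change -0.11, adjusted p = 0.14). Psmb9 stood at 39.4, 39.8 and 34.9 CPM and at 32.4, 37.3 and 31.1 CPM (log2 change -0.17, adjusted p = 0.11; adjusted p = 0.017 with the block). Both were called with total reads as the only scaling (adjusted p = 0.013 and 0.024).

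H2-Q10 went from 13.5, 11.5 and 10.9 CPM to 9.30, 7.66 and 7.96 CPM (log2 change -0.48, SE 0.11, adjusted p = 0.0042), without overlap. H2-Q5 stood at 42.7, 27.9 and 47.4 CPM with TNF and at 27.0, 30.8 and 21.8 CPM with all 3 ligands; TNF replicate 2 lay inside the range of the other group, and the call (log2 change -0.53, SE 0.16, adjusted p = 0.027) was lost without replicate 1 or 3 of either group. Tapbpl fell by 0.28, Tap2 by 0.24 and Tapbp by 0.17. Tap1 stood at 159, 170 and 177 CPM and at 150, 157 and 160 CPM (log2 change -0.12, adjusted p = 0.094; adjusted p = 0.014 with the block), and B2m at 3466, 3736 and 3560 CPM and at 3606, 3369 and 3709 CPM (log2 change -0.01, adjusted p = 0.89). In the other direction, H2-Ab1 went from 11.6, 13.0 and 15.9 CPM to 17.5, 17.0 and 23.1 CPM (log2 change 0.48, SE 0.13, adjusted p = 0.012; lost without TNF replicate 1). Psmb2 went from 182, 193 and 172 CPM to 247, 237 and 225 CPM (log2 change 0.37, SE 0.05, adjusted p = 0.00018) and Psmd12, a scaffold subunit of the 19S cap, from 129, 130 and 132 CPM to 148, 159 and 155 CPM (log2 change 0.24, SE 0.05, adjusted p = 0.0013). All 3 genes had no overlap between groups.

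Whether the effect of TGFB1 with BMP2 differed with TNF was tested over the 12 libraries of each system. In colonocytes limma called 0 of 72 members, against 0% of all genes higher and 0.00875% lower. edgeR called 0 members as well, and 5 of the 72 members (6.94%) had an unadjusted p under 0.05, against 3.11% of all genes, all negative (H2-Q10 at -0.48, H2-T23 at -0.42, Tapbpl at -0.36, Psme2 at -0.25 and Tapbp at -0.18), each with an adjusted p of 1.0. In colonoids limma and edgeR called 0 of 70 members, against 0% of all genes in either direction, and 0 members had an unadjusted p under 0.05, against 0.736% of all genes.

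In colonoids, TGFB1 with BMP2 lowered B2m, Erap1 and, against vehicle, 3 of the 4 chaperones that assemble the 20S core. It raised Tapbpl and the class Ib gene H2-T23. Against vehicle, 9 of 70 members rose (12.9%) and 15 fell (21.4%), against 28% and 28.7% of all genes. Total reads as the only scaling shifted the median of all genes by -0.27 and gave 2 members higher and 34 lower, against 17.2% and 43.1% of all genes, so each value here is relative to the bulk of genes. Of the 9, only Psmd8 and Tapbpl were called higher with total reads. Leaving out the L42 treated library gave 13 calls and leaving out the L46 treated library gave 29; without a vehicle library of L42, L43 or L46 there were 14, 14 and 15. Added to TNF, 8 of 71 members rose (11.3%) and 16 fell (22.5%), against 26.4% and 27.7% of all genes, or 2 and 32 with total reads, against 16.5% and 42.1%, where the median of all genes shifted by -0.25 and H2-T23 and Psmd8 were the 2 called higher. Leaving out the L42 library with all 3 ligands gave 13 calls and leaving out that of L46 gave 33, while leaving out the TNF library of L42 or L43 gave 15. The summed level of the 10 epithelial markers moved with the treatment, from 11313 to 12650 CPM with vehicle to 26604 to 36421 CPM after TGFB1 with BMP2, and from 11575 to 13303 CPM to 26606 to 33234 CPM on top of TNF. Of the 10, 8 rose and 1 fell against vehicle (log2 changes of -2.31 to 3.14), and 8 rose and 2 fell on top of TNF (-2.61 to 2.65). Their part in these changes was not tested.

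B2m stood at 216, 218 and 180 CPM with vehicle and at 128, 111 and 135 CPM after TGFB1 with BMP2, in the order L42, L43 and L46 (log2 change -0.71, SE 0.12, adjusted p = 0.0042). On top of TNF it went from 296, 289 and 236 CPM to 153, 140 and 166 CPM (log2 change -0.83, SE 0.12, adjusted p = 0.0031). Every treated library was lower than every reference library in both comparisons. Erap1 fell by 0.65 and 0.70. Psmb10 stood at 44.2, 37.0 and 42.4 CPM with vehicle and at 24.4, 26.0 and 36.6 CPM treated (log2 change -0.51, SE 0.17, adjusted p = 0.039), a call lost when any 1 library except the treated L46 was left out. On top of TNF it went from 48.9, 58.8 and 54.1 CPM to 22.8, 32.7 and 38.5 CPM (log2 change -0.79, SE 0.19, adjusted p = 0.014), lost without the L43 TNF library. Neither comparison had overlap. Psmb9 stood at 6.66, 7.44 and 7.96 CPM with vehicle and at 3.46, 3.66 and 7.76 CPM treated (log2 change -0.56, adjusted p = 0.13), and on top of TNF at 8.11, 10.7 and 9.96 CPM and 2.79, 3.71 and 8.09 CPM (log2 change -0.95, SE 0.33, adjusted p = 0.045, lost without any 1 library but that of L46 with all 3 ligands). Psmb8 stood at 2.60, 4.91 and 5.62 CPM with vehicle and at 1.52, 2.13 and 6.33 CPM treated (log2 change -0.43, adjusted p = 0.43), and on top of TNF at 4.43, 8.13 and 8.87 CPM and 1.46, 2.92 and 6.42 CPM (log2 change -0.93, adjusted p = 0.11; adjusted p = 0.020 with the line as a block). The treated L46 library was the highest of its group for all 3 subunits in both comparisons.

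Tap1 stood at 15.2, 11.7 and 20.7 CPM with vehicle and at 8.23, 7.82 and 13.9 CPM treated, lower in each line (log2 change -0.63, SE 0.27, adjusted p = 0.090; adjusted p = 0.011 with the block). On top of TNF it went from 16.3, 13.7 and 21.5 CPM to 8.24, 7.62 and 12.8 CPM (log2 change -0.79, SE 0.24, adjusted p = 0.029), lost without the L42 or L46 TNF library or the L42 or L43 library with all 3 ligands. Tapbpl, the tapasin relative, went the opposite way. It went from 22.5, 21.8 and 21.7 CPM to 34.8, 42.3 and 35.8 CPM (log2 change 0.74, SE 0.11, adjusted p = 0.0030) and on top of TNF from 29.5, 33.0 and 32.6 CPM to 42.4, 54.0 and 43.7 CPM (log2 change 0.54, SE 0.12, adjusted p = 0.012). Its rise remained positive with total reads, at 0.47 and 0.29 (adjusted p = 0.0087 and 0.073). Tap2 and Tapbp rose by 0.51 and 0.43 against vehicle (0.24 and 0.16 with total reads, adjusted p = 0.20 and 0.11). With TNF present they changed by 0.20 and 0.25 (adjusted p = 0.44 and 0.12), and by -0.05 and -0.01 with total reads.

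The class I heavy chains split. H2-T23 stood at 84.3, 59.0 and 80.0 CPM with vehicle and at 148, 105 and 122 CPM treated (log2 change 0.74, SE 0.18, adjusted p = 0.013; adjusted p = 0.068 with total reads), and on top of TNF went from 76.0, 65.2 and 81.0 CPM to 142, 120 and 130 CPM (log2 change 0.81, SE 0.11, adjusted p = 0.0029). H2-Q1 went from 35.9, 53.6 and 30.9 CPM to 17.1, 25.0 and 13.4 CPM (log2 change -1.08, SE 0.28, adjusted p = 0.016; lost without the L42 treated library). Groups did not overlap for either gene. On top of TNF, H2-Q1 fell by 1.495 and H2-Q2 by 1.37, and H2-M3, which presents formylated peptides, by 0.85. In all, 4 of 10 heavy chains fell and 1 rose against vehicle, and 5 of 11 fell and 1 rose on top of TNF. Of all genes, 28.7% fell and 28% rose against vehicle, and 27.7% fell and 26.4% rose on top of TNF. The 5 include H2-M2, which passed the filter on low values only through the TNF libraries, as does the count of 16 fallen members given above. The classical H2-K1 and H2-D1 were called in neither comparison. H2-M2 went from 6.91, 11.7 and 5.13 CPM with TNF to 0.446, 0.794 and 1.40 CPM with all 3 ligands (log2 change -2.21, SE 0.32), again passing the filter only through the TNF libraries. Cd74 went from 14.3, 28.8 and 11.7 CPM to 1.39, 5.71 and 7.74 CPM (log2 change -1.79, SE 0.54, adjusted p = 0.029), without overlap but lost without the L42 or L43 TNF library or the L42 library with all 3 ligands. Against vehicle Cd74 stood at 3.23 ± 1.90 and 1.73 ± 1.03 CPM (adjusted p = 0.23). H2-Ab1 moved the other way, from 0.566, 1.21 and 2.1 CPM with vehicle to 3.17, 2.40 and 4.37 CPM treated (log2 change 0.94, SE 0.30, adjusted p = 0.034; 0.072 with total reads), lost without the L42 or L43 vehicle library or the L42 or L46 treated library. Leukocyte markers summed to 8.35 to 12.2 CPM with vehicle and 6.04 to 12.9 CPM treated.

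Of the 7 assembly chaperones of the proteasome, 4 fell and 0 rose against vehicle, and 3 fell and 1 rose on top of TNF. Of all genes, 28.7% fell and 28% rose against vehicle, and 27.7% fell and 26.4% rose on top of TNF. Psmg2, which with Psmg1 starts the alpha ring, stood at 23.1, 25.8 and 24.6 CPM with vehicle and at 9.36, 8.87 and 15.1 CPM treated (log2 change -1.11, SE 0.20, adjusted p = 0.0054), and fell by 0.94 on top of TNF. Psmg1 fell by 0.93 and 0.95. Of the 4 core chaperones, 3 fell against vehicle and 2 on top of TNF. Of the 3 chaperones of the 19S cap, Psmd5 fell by 0.28 and 0.33, Psmd10 changed by 0.26 (adjusted p = 0.10) and rose by 0.32 on top of TNF, and Psmd9 changed by -0.0030 and 0.04 (adjusted p = 0.98 and 0.78). Of 31 constitutive subunits, 3 rose and 1 fell against vehicle, and 4 rose and 0 fell on top of TNF, with median changes of 0.03 and 0.09. With total reads, 1 of the 31 rose and 16 fell against vehicle, 1 rose and 10 fell on top of TNF, and Psmd11 turned from 0.21 to -0.04 there. Psmd8, a subunit of the 19S lid, rose in both, from 162, 154 and 154 CPM to 281, 269 and 205 CPM on top of TNF (log2 change 0.67, SE 0.13, adjusted p = 0.0071; 0.41 with total reads). Psmc3ip, which the symbol rule takes in but which encodes a cofactor of meiotic recombination and no proteasome subunit, had the largest fall against vehicle. It stood at 5.74, 7.49 and 6.91 CPM with vehicle and at 0.196, 0.364 and 2.19 CPM treated (log2 change -2.15, SE 0.38), with 8 to 118 reads in the treated libraries. With its treated mean under 1 CPM, Psmc3ip passed the filter on low values only through the vehicle libraries, so its call there is a description. It is counted among the fallen members against vehicle given above. On top of TNF it went from 6.91, 7.56 and 6.98 CPM to 0.939, 0.408 and 3.03 CPM (log2 change -1.87, SE 0.37, adjusted p = 0.0073). The L46 library had the highest value of the treated group in both.

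**Figure D4:**
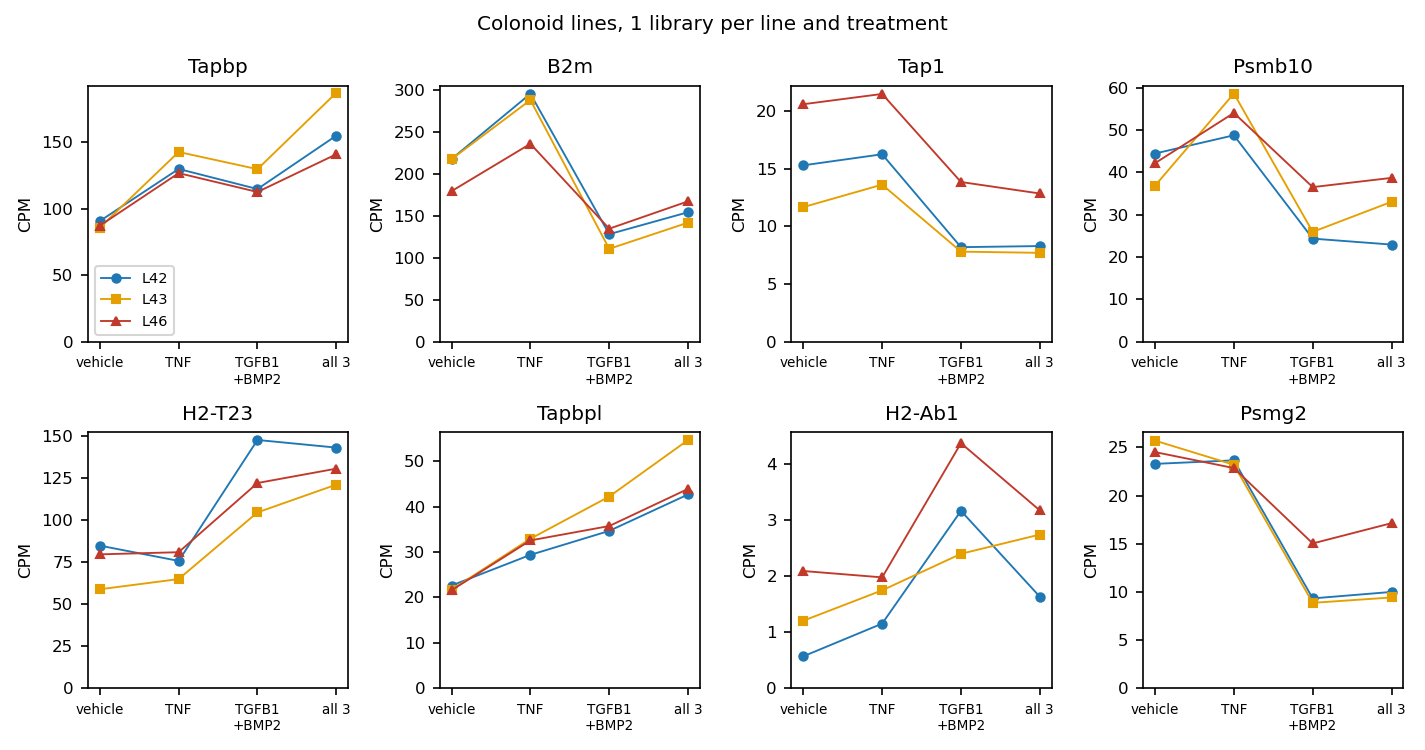
CPM (y axis, from 0) of 8 members in the 12 colonoid libraries, scaled jointly, with 1 line per colonoid line across the 4 treatments (x axis). B2m, Psmb10 and Tap1 are lowest in the 2 treatments that include TGFB1 with BMP2, Tapbpl and H2-T23 are highest there, and the L46 line keeps the highest Psmg2 in them.

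The balance of immunoproteasome over constitutive subunits was compared as the log2 ratio of CPM + 1 in each library, over 3 pairs and 7 comparisons. With 3 libraries against 3 the exact permutation test (two-sided) cannot go below p = 0.10, and adjusted over the 21 tests the lowest value was 0.21. In colonocytes TNF moved Psmb10 to Psmb7 by 0.87, from -2.55 ± 0.036 to -1.68 ± 0.14, without overlap (exact p = 0.10), and TGFB1 with BMP2 on top of TNF moved it by -0.53, also without overlap (exact p = 0.10). Smaller moves there without overlap (exact p = 0.10 each) were those of Psmb9 to Psmb6 with TNF (0.14) and Psmb8 to Psmb5 with TGFB1 and BMP2 alone (-0.26). With TGFB1 and BMP2 on top of TNF, Psmb8 to Psmb5 moved by -0.23 and Psmb9 to Psmb6 by -0.29, likewise without overlap (exact p = 0.10 each). In colonoids, TGFB1 with BMP2 on top of TNF moved Psmb9 to Psmb6 by -1.14 and Psmb10 to Psmb7 by -0.88, both without overlap (exact p = 0.10 each), and Psmb8 to Psmb5 by -1.15 with overlap (exact p = 0.20). TNF alone moved Psmb9 to Psmb6 by 0.32 in colonoids, without overlap (exact p = 0.10). In the knockout colon, where both kinds of subunit fell, the pairs differed. Psmb8 to Psmb5 moved by 0.44 without overlap (exact p = 0.10), Psmb9 to Psmb6 by 0.15 (exact p = 0.50) and Psmb10 to Psmb7 by -0.41 (exact p = 0.20).

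Genes of the same pathways outside the symbol rule were counted in 4 lists, to be read against the shares of all genes given for each comparison. Of 20 genes of transcription and interferon signalling, 12 rose and 0 fell with TNF in colonocytes (4.61% and 1.67% of all genes), led by Relb, an NF-kB subunit (15.6 ± 2.18 to 56.6 ± 7.87 CPM), and Irf1, an activator of class I and immunoproteasome genes (53.1 ± 3.27 to 123 ± 14.4 CPM). With TGFB1 and BMP2 on top, 2 rose and 6 fell, among them Irf1 (log2 change -0.40) and Rfx5, which binds the promoter module of MHC genes (log2 change -0.46). In colonoids 6 of 19 rose and 1 fell after TGFB1 with BMP2, and 7 rose and 1 fell on top of TNF, where 28% and 26.4% of all genes rose. With TNF alone 0 of 20 were called there by limma, and 4 of 20, all higher, with the line as a block. In the knockout colon 6 of 20 rose and 1 fell, against 19.8% and 19.9% of all genes, the faller being Relb (36.6 ± 2.63 to 21.0 ± 1.81 CPM). Of the class I loading partners and peptidases, 6 of 11 rose and 0 fell in the knockout, among them the peptidases Lnpep (log2 change 0.91) and Tpp2 (0.71) and the chaperone Calr (0.57). In colonocytes 3 of 12 rose after TGFB1 with BMP2 and 5 of 12 on top of TNF, where 15.9% and 16.4% of all genes rose, and 0 fell. In colonoids 3 of 10 rose and 3 fell against vehicle, and 1 rose and 4 fell on top of TNF, with Tpp2 the largest rise (log2 change 1.03 and 0.75). The endosomal proteases split in colonoids, with 3 of 8 higher and 4 lower against vehicle and 3 and 5 on top of TNF, where Ctsl rose by 1.67 and Ifi30, the thiol reductase of antigen processing, fell by 1.27. For both lists, 28% of all genes rose and 28.7% fell against vehicle, and 26.4% and 27.7% on top of TNF. In the knockout colon 0 of 8 endosomal proteases rose and 2 fell, Ctsl among them (log2 change -0.50), against 19.8% and 19.9% of all genes. Of 17 proteasome partners and regulators, 2 rose with TNF in colonocytes, Nfe2l1 (log2 change 0.35), the factor that restores proteasome genes when the proteasome is inhibited, and Nfe2l2 (0.29). After TGFB1 with BMP2 in colonocytes 4 rose and 1 fell, with Ddi2, the protease that activates Nfe2l1, higher by 0.71 and Nfe2l2 lower (log2 change -0.48). In colonoids 5 rose and 1 fell against vehicle, where 28% of all genes rose.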

How the data were processed

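The mRNA of 30 libraries was sequenced with a stranded kit, per the labels' protocols. The submitters' processing notes name mm10 as the build and TopHat2 2.1.0, HTSeq 0.5.4p5 and edgeR 3.4.2 among the tools. The deposited signal of each library is in CPM on a common effective library size, normalized by the authors separately in each of 7 tables of 6 libraries. The authors' deposited tables also hold log2 fold changes, p-values and adjusted p-values, which were used only to compare calls. Whole reads were recovered from the steps of the CPM values in every library (100% of values within 0.05 of a whole number). Depth was 23.2 to 28.6 M reads per colon library, 21.6 to 42.9 M per colonocyte library and 42.2 to 61.7 M per colonoid library.

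Changes of log2(CPM + 1) were tested with limma 3.58.1 (moderated test with trend, two-sided, R 4.3.3) over the 6 libraries of a table, among genes averaging at least 1 CPM, with Benjamini-Hochberg adjustment over all of them and a threshold of 0.05. Interactions were tested over 12 libraries on recovered reads scaled jointly with edgeR 4.0.16. The ratios were tested with exact permutation tests over libraries. Scripts were tested on simulated data. Alternatives were another pseudocount (0.1), a mean CPM of at least 5, no filter, total reads as the only scaling, edgeR, DESeq2 1.42.0, a replicate block and leaving out each library.

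The colonoid lines pair the libraries by label, and same-numbered deviations correlated at 0.28 to 0.89. Of the colonocytes, the numbers pair the libraries in the TNF comparison (0.27 to 0.52). In that of adding TGFB1 with BMP2 to TNF (0.16 to 0.41) every pair was above 0.1. Replicate 2 was not closest to its own number there, so that pairing is uncertain. The blocked fit leaves 2 residual degrees of freedom, and limma's prior carries most of its weight in the TNF comparison of colonocytes (prior degrees of freedom 221, against 6.88 without the block).

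The members, lists and markers (4 pathway lists and marker lists of leukocytes, epithelium and stroma) were chosen with earlier results of these data known. Values are given in every library for Psmb8, Psmb9, Psmb10, B2m, Tap1 and the 3 largest rises and falls past the threshold in each comparison. Other genes named, such as Tapbpl and Cd74 outside that rule, were chosen after their values were seen, as were the 6 promoters shown. Annotation is GENCODE vM21 and promoters are from RefSeq (GRCm38.p6).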

Additional observations from a re-analysis of the deposited data

Results flagged for a closer look

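For 4 members TGFB1 with BMP2 moved all treated libraries one way in colonocytes and the opposite way in colonoids, without overlap of the groups in either system. Such opposite moves were made by 3 of 68 members (4.41%) against untreated cultures and by 2 of 68 (2.94%) on top of TNF, against 11.2% of all genes in each case. Against untreated cultures, the log2 change of the alpha ring subunit Psma6 was 0.13 in colonocytes and -0.18 in colonoids, that of the 19S subunit Psmd7 0.12 and -0.15, and that of the chaperone Psmg3 0.08 and -0.51. On top of TNF, Psma6 changed by 0.16 and -0.15 and Tapbpl by -0.28 and 0.54. The difference between the systems was not tested. With total reads as the only scaling, the change of Psmg3 in colonocytes was -0.0012, and its opposite direction was gone. No source used here gives the doses in colonocytes, and the systems were normalized apart. The colonocytes listed 3 or 4 of 10 epithelial and 8 of 10 stromal markers, and the colonoids all 10 and 2 or 3. The part of this difference in cell markers was not tested.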

How the results depend on the processing

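The replicate block gave 28 members called for TNF in colonocytes, 13 for TGFB1 with BMP2 there (where the numbers were not taken as pairs), 34 for TGFB1 with BMP2 on top of TNF (where the pairing is uncertain), and 12 for TNF in colonoids, and moved no other count by over 1.5 times. For TNF in colonoids a mean CPM of at least 5 gave 1 member, total reads 1 and DESeq2 5. Leaving out 1 library at a time gave 22 to 37 members in the knockout, 13 to 20 for TNF in colonocytes, 4 to 11 for TGFB1 with BMP2 there and 10 to 19 on top of TNF. In colonoids it gave 0 to 1 for TNF, 13 to 29 for TGFB1 with BMP2 and 13 to 33 on top of TNF, and 0 for both interactions. Of the changes not past the threshold, that of Tap1 in the knockout lay between -0.20 and 0.32 without 1 library (-0.11 without control 1, -0.038 without knockout 2), and that of Tap1 with TNF in colonoids between -0.075 and 0.32 (-0.049 without TNF L46). With TGFB1 and BMP2 in colonocytes, Psmb9 lay between -0.12 and 0.014, with 0.0096 without control 2. The change of B2m there turned to -0.059 with total reads, and on top of TNF it lay between -0.041 and 0.028, with 0.019 without TNF 2. The cause was not tested. Other calls named and lost without at least 1 library were those of H2-Ab1, Psmc2, Psmd11 and Psme4 in the knockout, H2-D1 with TNF in colonocytes, Tapbp and Tapbpl with all 3 ligands there, Tap2 in colonoids given TGFB1 with BMP2, and H2-Q1 on top of TNF. Of the log2 changes of named members under all alternatives, 744 kept direction and side of the threshold, 60 lost the call, 25 gained it and 10 reversed. All 147 ratio values moved by less than 1 SD.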
